A study of Mus musculus with 4 samples.

Results

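Fibronectin (Fn1), the tenascins C and X (Tnc and Tnxb), periostin (Postn), its relative TGFBI (Tgfbi), SPARC (Sparc) and its relative SPARC-like 1, also called hevin (Sparcl1), were chosen by name as a group of 7 secreted matrix genes. All 7 were found by Ensembl identifier among the 32948 genes of the count table. The cells came from the ascending aorta and arch of Wnt1-Cre;Rosa26-mTmG mice, whose ages the labels do not give. In this reporter strain the membrane protein tdTomato is made in every cell until Cre recombinase removes it and turns on GFP, and Wnt1-Cre acts in the neural crest, one source of arch smooth muscle. The groups were thus GFP cells, with a history of Wnt1-Cre, and tdTomato cells, without one, all from animals that carry both transgenes. Each colour was sorted from a suspension pooled from 2 male samples and from a suspension of 1 female sample, which gave 4 libraries and no replicate of any combination of colour and sex. The labels call every library vascular smooth muscle cells, but fluorescence was the sole criterion of the sort they describe.

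Most of these proteins are called matricellular, because they sit in the extracellular matrix and tune how cells attach to it more than they bear load. Fibronectin is the exception: cells pull it into fibrils through integrins, and collagens and other matrix proteins are laid down on those fibrils. In arteries tenascin C is scarce in the quiet wall and appears with injury and remodelling, periostin and TGFBI are induced by TGF-beta and share fasciclin domains, and SPARC binds collagen and calcium.

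Promoter sequences are shown for Tnc and Tgfbi, the 2 genes lower by 2-fold or more in GFP cells of both suspensions, and for Postn, which was abundant in every library. RefSeq windows on build GRCm38.p6 matched 5 of the 7 genes, and the 250 bases before the start nearest to the annotated gene start are printed, 5′ to 3′ on the gene's strand. These windows are chr4:64047016-64047265 (minus strand), chr13:56609336-56609585 (plus strand) and chr3:54360857-54361106 (plus strand). Capitals mark the letters TATAAA.
Tnc: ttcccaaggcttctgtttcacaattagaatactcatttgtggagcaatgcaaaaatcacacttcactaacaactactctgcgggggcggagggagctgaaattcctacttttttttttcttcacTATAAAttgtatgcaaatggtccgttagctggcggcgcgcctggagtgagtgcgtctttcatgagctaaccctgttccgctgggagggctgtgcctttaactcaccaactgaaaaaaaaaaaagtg
Tgfbi: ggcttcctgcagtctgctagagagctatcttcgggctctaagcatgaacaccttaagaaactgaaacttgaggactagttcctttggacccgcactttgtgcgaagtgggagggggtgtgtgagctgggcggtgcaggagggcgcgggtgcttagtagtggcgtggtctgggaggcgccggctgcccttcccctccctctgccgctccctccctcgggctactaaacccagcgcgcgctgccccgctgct
Postn: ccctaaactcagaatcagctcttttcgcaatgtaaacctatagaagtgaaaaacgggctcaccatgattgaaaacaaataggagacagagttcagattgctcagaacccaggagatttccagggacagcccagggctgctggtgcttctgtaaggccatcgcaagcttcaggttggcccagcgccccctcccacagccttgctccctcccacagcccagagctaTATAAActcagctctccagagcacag
The Postn window held TATAAA on the gene's strand, with its first base 26 bases before the start, the usual place of a TATA box. Tnc held the same letters 126 bases before the start and Tgfbi held none, while 7.59% of 32851 promoter windows of this length held them. The AP-1 letters TGANTCA (6.75% of windows, both strands), the TEAD letters CATTCC (12.6%, both strands) and the CArG box, the site of serum response factor (1.47%, both strands), were found in none of these 3 windows. Of the other windows, that of Tnxb held the AP-1 letters 55 bases before the start and that of Sparc held none of the motifs. The GC content of the Tgfbi window was 62.4%, against 44.8% for Tnc, 52.0% for Postn and a median of 52.4% over all windows.

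The libraries held 10094326 estimated counts in male GFP, 12837282 in male tdTomato, 13678806 in female GFP and 13911281 in female tdTomato. Both GFP libraries detected fewer genes at 10 counts or more (9517 in male and 12008 in female) than their tdTomato partners (15669 and 16227). Levels are given in CPM, counts scaled for depth with TMM factors, and 3 counts, the upper limit that a count of 0 allows, are worth 0.319, 0.216, 0.238 and 0.201 CPM in the 4 libraries in that order. Intervals and limits cover counting error only, and they take reads as independent. PCR copies are not independent molecules, so the counting error can be larger than these intervals show. Smooth muscle markers other than Pln were present in all 4 libraries, and the list of 10 genes summed to 14402 to 19005 CPM. Pln, named after its values were seen, had 0 counts in male GFP, 1 in male tdTomato, 24 in female GFP and 9 in female tdTomato. The 10 endothelial markers summed to 12.8 CPM in male GFP and 15.8 CPM in female GFP, against 262 CPM in male tdTomato and 413 CPM in female tdTomato. The 10 fibroblast markers summed to 579 and 3860 CPM in male and female GFP, against 4536 and 3637 CPM in male and female tdTomato.

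All 7 genes passed the filter on low counts, Tnc through its tdTomato libraries alone, and 4 of them stood far above the other 3. Together the genes took 0.546% of the counts in male GFP (Wilson 95% interval 0.542 to 0.551), 0.483% in male tdTomato, 0.418% in female GFP and 0.513% in female tdTomato. Per kilobase of the longest coding transcript, Sparc led in both tdTomato libraries and in female GFP, at 661 to 788 CPM per kb, and Sparcl1 led in male GFP at 882 CPM per kb. Fn1 followed these and Postn in every library, at 102 to 114 CPM per kb. Tgfbi, Tnc and Tnxb were the lowest 3 throughout, from 0 to 67.1 CPM per kb. In male GFP the intervals of the neighbours Postn and Sparc did not overlap (446 to 461 and 425 to 443 CPM per kb), whereas those of Tnc and Tnxb did.

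**Figure D1:**
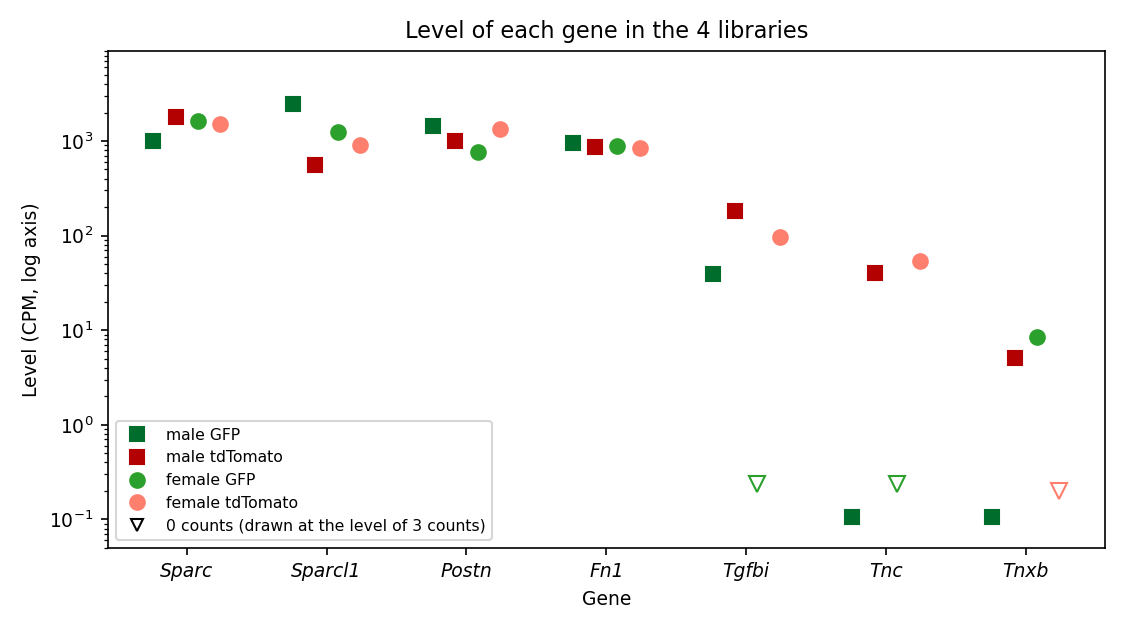
Level of each of the 7 genes in CPM (log axis), 1 point per library, with squares for male, circles for female and open triangles for libraries at 0 counts, drawn at the level of 3 counts. Sparc, Sparcl1, Postn and Fn1 lay between 552 and 2433 CPM in all libraries, whereas Tgfbi and Tnc were lower in both GFP libraries than in both tdTomato libraries.

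Fibronectin was the most even of the 7 genes. Fn1 measured 944 CPM in male GFP and 892 CPM in female GFP, against 865 CPM in male tdTomato and 851 CPM in female tdTomato. The libraries of the colours did not overlap, yet the highest level was 1.11 times the lowest, and 0 of the 265 genes averaging 500 CPM or more, Fn1 among them, spanned a smaller range. This comparison was made after the values were seen. With DESeq2 size factors 7 of 266 such genes had a smaller range, and with library totals 0 of 261. Averaged over the pairs, the log2 ratio (GFP over tdTomato, prior count of 2) was 0.10 ± 0.04 (SD, n = 2 pairs) and the adjusted p from edgeR's quasi-likelihood test was 1. With library totals in place of TMM the ratio was negative in both pairs, -0.093 in the male and -0.15 in the female pair on the log2 scale. The antisense gene Apol7d overlaps Fn1 and had at most 113 counts in any library.

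Tenascin C was almost absent from the GFP libraries. Tnc had 1 count in male GFP (0.106 CPM) and 0 counts in female GFP, against 558 counts (40.1 CPM) in male tdTomato and 814 counts (54.4 CPM) in female tdTomato. The GFP level was lower by 377-fold in the male pair (95% counting interval 67.4 to 14919) and by at least 229-fold in the female pair, taking 3 counts for female GFP. In bulk libraries, fewer cells of a type that makes a transcript and less of it per cell cannot be told apart. On the log2 scale the mean ratio was -7.85 ± 0.84 (SD, n = 2 pairs) with the prior count of 2. With GFP counts this low, the mean and its SD depend on that prior. The ratios were -8.11 in the male and -10.44 in the female pair with a prior count of 0.5, and -6.34 and -7.12 with 5. The edgeR adjusted p was 0.577 (unadjusted 0.0330), while DESeq2 gave a log2 fold of -9.98 ± 2.43 (SE) and an adjusted p of 0.00569. Of the 4806 genes that reached 20 CPM in each tdTomato library, a level chosen after the values were seen, 2.83% had at most 3 counts in both GFP libraries. A gene on the opposite strand, 8030451A03Rik, overlaps Tnc and had 0 counts in both GFP libraries, against 62 in male tdTomato and 12 in female tdTomato; the kit does not mark strand, so reads of the overlap cannot be told apart.

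Tenascin X, which in mice and humans is needed for normal collagen fibrils, was on average the lowest gene of the group and had no common direction. Tnxb had 1 count in male GFP (0.106 CPM) and 107 counts in female GFP (8.47 CPM), against 70 counts in male tdTomato (5.04 CPM) and 0 counts in female tdTomato. In GFP it was lower by 47.3-fold in the male pair (8.22 to 1895) and higher by at least 42.2-fold in the female pair. Within a colour the libraries stood just as far apart: the male level was lower by 79.6-fold in GFP (13.98 to 3173) and higher by at least 25.1-fold in tdTomato. The mean log2 ratio over the pairs, 0.74 ± 7.13 (SD, n = 2), was far smaller than its spread, and the edgeR adjusted p was 1.

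Periostin was abundant in every library, and its difference between the colours had opposite signs in the pairs. Postn measured 1454 CPM in male GFP and 762 CPM in female GFP, against 1003 CPM in male tdTomato and 1346 CPM in female tdTomato, so that the GFP values lay on either side of the tdTomato values. In the male pair GFP was higher by 1.45-fold (1.42 to 1.49), and in the female pair it was lower by 1.77-fold (1.72 to 1.81). Their log2 values averaged -0.14 ± 0.96 (SD, n = 2 pairs; edgeR adjusted p 1), and the sign of the fitted fold depended on the scaling, being 0.040 with DESeq2 size factors.

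TGFBI, the other fasciclin protein, was lower in GFP cells of both suspensions. Tgfbi had 373 counts in male GFP (39.7 CPM) and 0 counts in female GFP, against 2532 counts in male tdTomato (182 CPM) and 1450 counts in female tdTomato (97.0 CPM). Both GFP libraries lay below both tdTomato libraries, by 4.59-fold in the male pair (counting interval 4.11 to 5.13) and by at least 408-fold in the female pair. Over the pairs the log2 ratio averaged -5.73 ± 5.00 (SD, n = 2). The edgeR adjusted p was 0.963, and DESeq2 gave a log2 fold of -6.78 ± 2.36 (SE) with an adjusted p of 0.0478. Among the same 4806 genes, 3.16% were at 0 counts in the female GFP library, and 11.7% were at 0 in the male one.

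The SPARC relatives were both abundant and differed in pattern. Sparc measured 997 CPM in male GFP and 1627 CPM in female GFP, against 1813 CPM in male tdTomato and 1521 CPM in female tdTomato. Male GFP was the low library, 1.82-fold below its tdTomato partner (counting interval 1.78 to 1.86), while the female pair differed by 1.07-fold in the other direction (1.05 to 1.09), a sign that turned to -0.12 (log2) with library totals. Sparc averaged a log2 ratio of -0.38 ± 0.68 (SD, n = 2 pairs; edgeR adjusted p 1).

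Hevin, which keeps cells from spreading on matrix and is known in the brain for its part in synapse formation, was higher in GFP in both pairs. Sparcl1 measured 2433 CPM in male GFP and 1241 CPM in female GFP, against 552 CPM in male tdTomato and 902 CPM in female tdTomato, so that both GFP libraries lay above both tdTomato libraries. Male GFP exceeded its partner by 4.40-fold (4.29 to 4.52) and female GFP by 1.38-fold (1.34 to 1.41). The log2 ratios averaged 1.30 ± 1.19 (SD, n = 2 pairs), and the edgeR adjusted p was 0.637 (unadjusted 0.0705). DESeq2 gave an adjusted p of 0.846. The antisense gene Gm26703 overlaps Sparcl1 and had 7 to 284 counts, against 7680 to 22858 for Sparcl1.

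**Figure D2:**
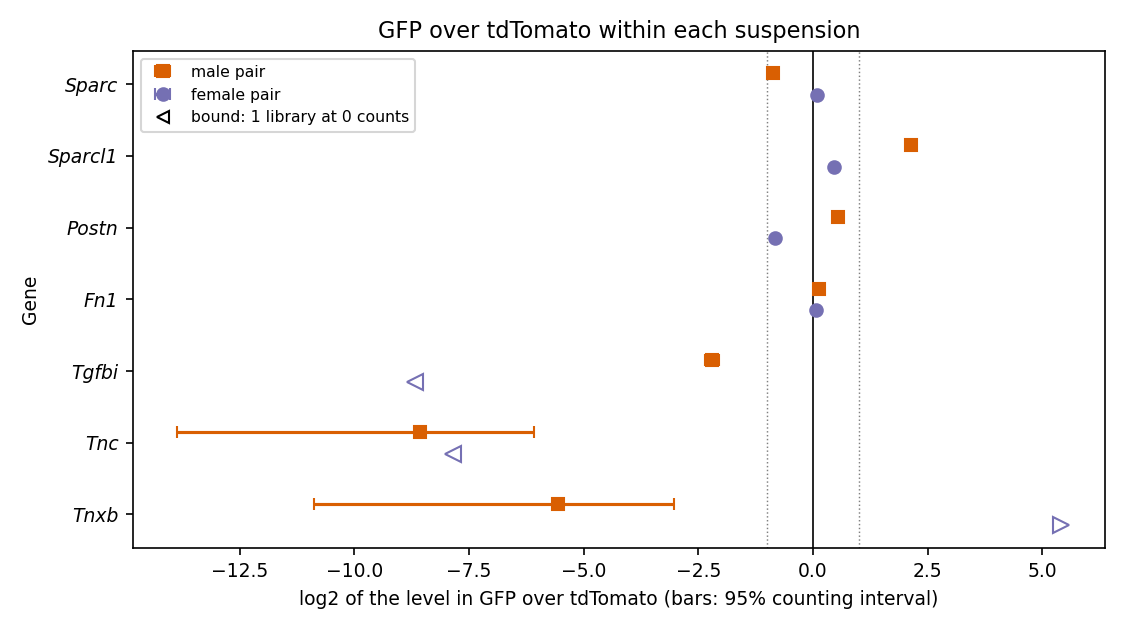
Level in GFP over tdTomato on the log2 scale for each gene, with the male pair above the female pair, bars for 95% counting intervals, open triangles for bounds where 1 library had 0 counts, and dotted lines at 2-fold. Tnc and Tgfbi lay left of -1 in both pairs, Sparcl1 right of 0 in both, and Tnxb on opposite sides.

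Ratios between members can also be read within a library, where no scaling between libraries enters. Per length, Sparcl1 had 2.03 times the level of Sparc in male GFP (counting interval 1.99 to 2.08) and 0.636 times in female GFP (0.623 to 0.650), against 0.254 times in male tdTomato (0.248 to 0.261) and 0.494 times in female tdTomato (0.484 to 0.505). The ratio was therefore higher in GFP in both pairs, and male GFP was the single library in which Sparcl1 exceeded Sparc. Postn stood at 4.00 times the level of Fn1 in male GFP and 2.22 times in female GFP, against 3.01 times in male tdTomato and 4.10 times in female tdTomato. As shares of the counts of the 7 genes, Sparcl1 took 41.5% in male GFP and 27.4% in female GFP, against 12.4% and 18.9% in male and female tdTomato. Sparc took 17.0% and 35.9% in male and female GFP, against 40.6% and 31.9% in male and female tdTomato.

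**Figure D3:**
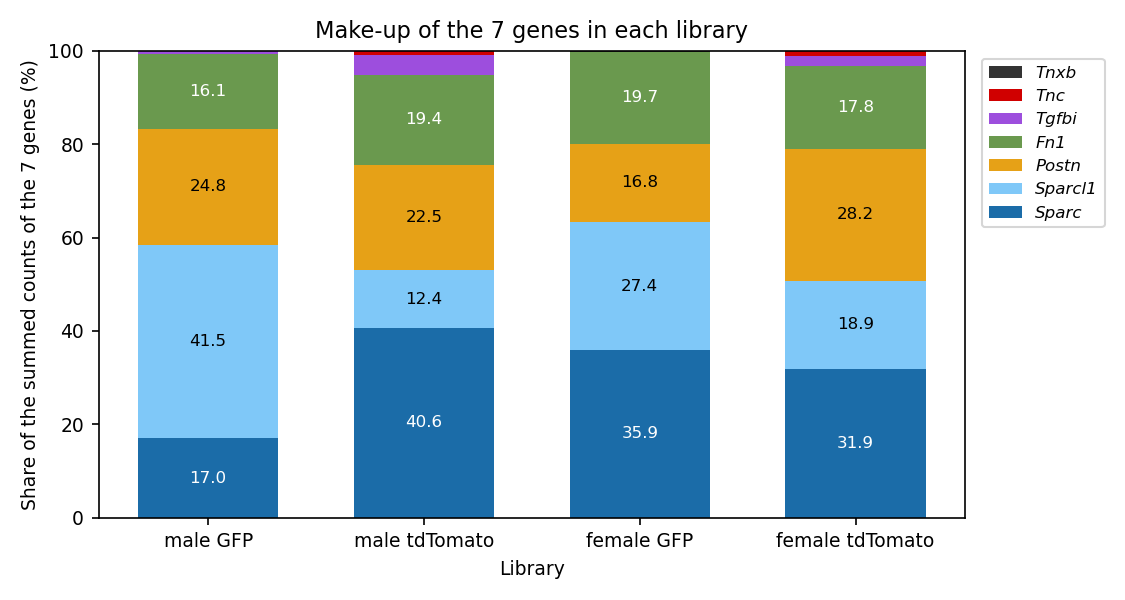
Share of each gene (%) in the summed counts of the 7 genes, 1 bar per library. Sparcl1 took 41.5% of the male GFP bar and 12.4% of the male tdTomato bar, while Fn1 stayed between 16.1% and 19.7%.

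Over the 15055 genes that passed the filter, edgeR called 0 genes between the colours (0% of those tested), with 1298 at an unadjusted p under 0.05 (8.62%), Tnc among them. DESeq2 called 1157 (7.69%), of which 1108 were lower in GFP (7.36%), and limma-voom called 0, with 2074 at an unadjusted p under 0.05. The DESeq2 shares are of all tested genes, of which 13303 received an adjusted p. Tnc and Tgfbi were the 2 members that DESeq2 called, both lower in GFP. The test rests on 2 pairs that also differ in sex. An exact two-sided test that swaps the colours within the pairs cannot give a p below 0.5. A permutation test of 2 libraries against 2, which ignores the pairing, cannot give a p below 0.333. By size alone, Tnc and Tgfbi, 2 of 7 members, met a 2-fold difference toward tdTomato in each pair, a share close to the 22.9% of all tested genes that did. In the direction of GFP 0 members met it, against 5.17% of tested genes, and Tnxb, 1 of 7, met it with opposite signs, against 19.2%. The colours did not overlap for 4 members: Tnc and Tgfbi were lower in GFP (29.3% of tested genes) and Fn1 and Sparcl1 higher (11.5%), with the sign for Fn1 turned under library totals. The median log2 ratio of the 7 members was -0.86 in the male pair and 0.07 in the female pair, beside -0.998 and -0.27 over all tested genes.

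The comparison of the suspensions, male over female, cannot be told apart from the number of samples pooled and the animals. edgeR and limma-voom called 0 of 15055 genes (0%), with 262 and 588 at an unadjusted p under 0.05, and DESeq2 called 140 (0.930%), none of them a member. DESeq2 gave an adjusted p to 11552 of the tested genes here, and Tnxb was not among them. For every member the male libraries overlapped the female ones, whereas 13.7% of tested genes were higher and 18.9% lower in both male libraries without overlap. Tgfbi had the largest mean difference, being higher in male than in female by at least 167-fold in GFP and by 1.88-fold in tdTomato (counting interval 1.76 to 2.00). Averaged over the colours its log2 ratio was 4.45 ± 5.00 (SD, n = 2; edgeR adjusted p 1). For Sparcl1 the male level was higher by 1.96-fold in GFP (1.92 to 2.00) and lower by 1.63-fold in tdTomato (1.59 to 1.68). For Sparc the signs were reversed, the male level being lower by 1.63-fold in GFP (1.59 to 1.67) and higher by 1.19-fold in tdTomato (1.17 to 1.21). In GFP, Tnxb was at least 2-fold lower in male (40.4% of tested genes) and Tgfbi higher (27.9%). In tdTomato 0 members were lower by that measure (21.6%) and Tnxb was higher (20.6%). In both colours together 0 members were lower (10.3%) and 0 higher (6.28%).

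Among the cell surface receptors for these proteins, the most abundant were present in every library. The integrin chain Itga8, which pairs with Itgb1 to bind fibronectin and tenascin C, measured 2243 CPM in male GFP and 1050 CPM in female GFP, against 1720 CPM in male tdTomato and 1870 CPM in female tdTomato. Itgb1 measured 597 and 650 CPM in male and female GFP, against 463 and 466 CPM in male and female tdTomato. Ptprz1, a receptor phosphatase that binds tenascin C in the brain, measured 453 and 571 CPM in male and female GFP, against 212 and 311 CPM in male and female tdTomato. Both Itgb1 and Ptprz1 were thus higher in both GFP libraries than in both tdTomato libraries, with edgeR adjusted p-values of 1. Over all tested genes, 11.5% were higher in GFP without overlap of the colours and 29.3% were lower. Of 13 tested receptors, 3 were lower by 2-fold or more in each GFP library than in its partner and 0 were higher, shares close to those of all tested genes. The 3 were the integrin chains Itga4 and Itgb3 and the syndecan Sdc1, named after their values were seen, and DESeq2 called Itga4 (adjusted p 0.0429), at 0 and 0.158 CPM in male and female GFP against 14.6 and 6.69 CPM in male and female tdTomato. Receptors had medians of -0.66 in the male and 0.01 in the female pair (log2).

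Matrix partners and assembly factors of the 7 proteins had median log2 ratios of -0.81 in the male and -0.83 in the female pair, beside -0.998 and -0.27 over all tested genes. Of 15 tested, 3 were lower in GFP by 2-fold or more in each pair (Col1a1, Fbln2 and Thbs1, named after their values were seen), a share close to the 22.9% of all tested genes, and 0 were higher, against 5.17% of all. Col1a2, a chain of type I collagen, to which SPARC binds, measured 1311 and 646 CPM in male and female GFP, against 1413 and 1392 CPM in male and female tdTomato. Col3a1 followed the order of Postn, at 1693 and 607 CPM in male and female GFP against 838 and 1077 CPM in male and female tdTomato. Dcn, a proteoglycan of fibroblasts that binds collagen, measured 153 and 2134 CPM in male and female GFP against 2236 and 1920 CPM in male and female tdTomato. No gene of this list was called by edgeR or DESeq2.

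The list of TGF-beta ligands, receptors and inducers had medians of 0.53 and 0.14 (log2) in the male and female pairs over 11 tested genes. Tgfbr1, a receptor of TGF-beta, was the 1 gene higher in GFP by 2-fold or more in each pair, at 352 and 717 CPM in male and female GFP against 115 and 300 CPM in male and female tdTomato (edgeR adjusted p 0.703, DESeq2 adjusted p 0.800), and 0 were lower by that measure, against 5.17% higher and 22.9% lower over all tested genes. Ccn2, a matricellular target of TGF-beta, measured 3477 and 2101 CPM in male and female GFP against 2022 and 2199 CPM in male and female tdTomato. Ccn1 measured 447 and 791 CPM in male and female GFP against 493 and 410 CPM in male and female tdTomato. Neither was called. Of the structural relatives of the 7 genes, 4 of 9 in the table were tested, and 1, the fasciclin protein Stab1, which endothelial cells and macrophages carry and which was named after its values were seen, was lower in GFP by 2-fold or more in each pair (22.9% of all tested genes). Fstl1, a secreted protein with a SPARC-like domain, measured 945 and 1170 CPM in male and female GFP against 1278 and 1438 CPM in male and female tdTomato. Smoc1, a basement membrane protein of the SPARC family, measured 553 and 144 CPM in male and female GFP against 184 and 169 CPM in male and female tdTomato. Its relative Smoc2 stood at 0.426 and 113 CPM in male and female GFP against 238 and 111 CPM in male and female tdTomato, so that male GFP was the 1 library nearly without it.

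**Figure D4:**
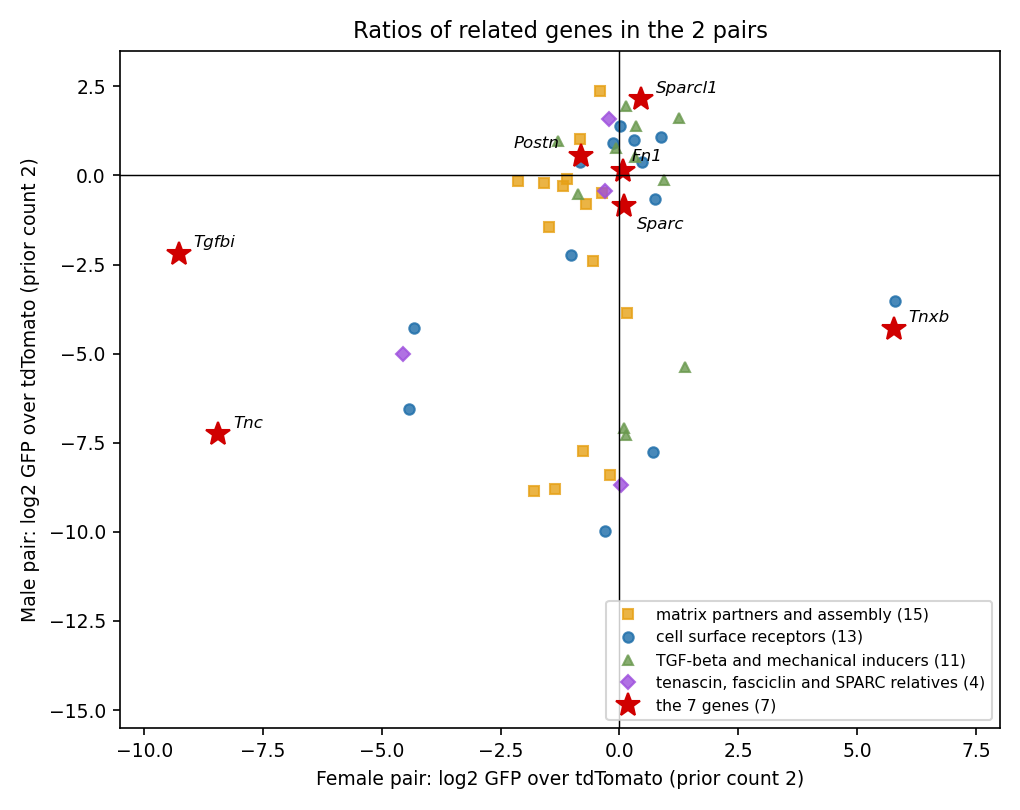
Log2 ratio of GFP over tdTomato (prior count of 2) in the male pair (vertical) against the female pair (horizontal) for the 7 genes (stars) and 4 lists of related genes, with the number of tested genes in brackets. Tnc and Tgfbi stand at the lower left, and Tnxb at the lower right.

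Markers of other cell types had no common direction between the colours. In each pair all 10 endothelial markers were lower in GFP by 2-fold or more. Among all tested genes 22.9% were lower by that measure, the share to set beside the counts of lower markers here. Ptprb measured 0 and 0.158 CPM in male and female GFP against 125 and 172 CPM in male and female tdTomato, and Tek measured 0 and 0.0792 CPM in male and female GFP against 12.6 and 80.3 CPM in male and female tdTomato. Pecam1 made up nearly the whole GFP sum of this list, with 111 and 192 counts (11.8 and 15.2 CPM) in male and female GFP, against 41.4 and 51.0 CPM in male and female tdTomato. Among the others, Kdr and Egfl7, named after their values were seen, had 0 counts in both GFP libraries. Of 6 tested macrophage markers 5 were lower by that measure, with summed levels over 8 genes of 0.426 and 6.49 CPM in male and female GFP, against 84.2 and 22.1 CPM in male and female tdTomato. The exception was Csf1r, at 0.106 and 6.41 CPM in male and female GFP against 19.2 and 4.75 CPM in male and female tdTomato. Of 10 fibroblast markers 4 were lower in both pairs (Ly6a, Col14a1, Pdgfra and Clec3b, named after their values were seen), and Pdgfra measured 0.426 and 0 CPM in male and female GFP against 61.9 and 68.6 CPM in male and female tdTomato. The median log2 ratio of the fibroblast list was -4.77 in the male and -1.01 in the female pair, and Dcn, Gsn and Lum carried most of its summed level in female GFP, at 2134, 823 and 715 CPM. Schwann cell markers ran the other way over 7 genes. They summed to 109 and 257 CPM in male and female GFP against 18.3 and 8.23 CPM in male and female tdTomato. However, Sox10 and Mbp of that list, named after their values were seen, had at most 1 count in any library. Cdh19, which did not pass the filter and was named after its values were seen, was at 0 in all libraries but female GFP (130 CPM). Melanocyte markers summed to 136 and 212 CPM in male and female GFP against 66.1 and 86.3 CPM in male and female tdTomato over 5 genes. Within that list Dct was higher in GFP by 2-fold or more in each pair (log2 1.52 in the male and 1.85 in the female pair), Mitf was lower (-1.44 and -5.08), and Tyr differed little in the male pair (0.03) and was higher in the female pair (1.15). The 2 mesothelial genes in the table summed to at most 12.3 CPM. The part of these cell types in the values of the 7 genes was not tested.

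The genes most like each member were sought over the 4 libraries among 5566 named genes of at least 20 CPM on average, by the root mean square difference of centred log2 CPM. With 4 libraries this likeness is a description and carries no test. Closest to Fn1 was Net1 (0.04), to Postn Tmem234 (0.04) and Aoc3 (0.05), to Sparc Jun (0.03) and Cds2 (0.06), and to Sparcl1 Ndfip1 (0.04) and Ccnt1 (0.08). The genes with strong differences had less close neighbours, Nectin3 (0.27) and Phf10 (0.28) for Tnc, Krcc1 (0.23) and Zfp948 (0.39) for Tgfbi, and Rhobtb3 (0.55) and Med10 (0.82) for Tnxb. Fgf1 (0.05) was second for Fn1. Among the 7 members the closest pair was Fn1 and Postn (0.36) and the farthest Tnxb and Tgfbi (5.81).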

How the data were processed

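The table the authors deposited holds expected counts, that is, estimated counts of reads per gene that are not scaled between libraries. The labels' protocols name the SMART-Seq v4 kit, which copies polyadenylated RNA, amplifies it by PCR and does not mark strand, followed by paired reads. The submitters' processing notes name build GRCm39 and the tools fastp, HISAT2 and StringTie; their roles, the counting program and the annotation are not given in the sources used here. Counts were rounded, and genes were matched by identifier to GENCODE vM21 symbols and lengths (GRCm38), which covered 76.4% of genes.

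Genes kept by edgeR's filterByExpr at a minimum of 10 counts were tested with edgeR 4.0.16 (quasi-likelihood F test, TMM, Benjamini-Hochberg over 15055 genes, threshold 0.05) in R 4.3.3, with the suspension as a block, since the colours of a pair share their animals; deviations of paired libraries correlated at 0.05 over genes. DESeq2 1.42.0 and limma-voom (limma 3.58.1), other scalings, filters, no block and leaving out each library were alternatives. The edgeR fit has 1 residual degree of freedom. Its error is the disagreement of the colour difference between the 2 suspensions, with variance shared over genes. The same error serves male over female, so those p-values do not measure a spread between suspensions of the same sex. Single ratios have exact 95% binomial intervals. The members and lists were chosen with earlier results of these data known. Named genes were the 7 members, genes that overlap them, the 3 most abundant tested genes of each list, and the 2 genes most like each member. Others are stated as chosen later.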

Additional observations from a re-analysis of the deposited data

Results flagged for a closer look

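For 4 of the genes a contrast ran in opposite directions in the 2 pairs or in the 2 colours under all 3 scalings, with counting intervals that exclude equality. With 1 library in each combination these differences were not tested. The log2 ratio of GFP over tdTomato for Tnxb in the male pair minus that in the female pair was -10.08, and the male over female contrast in GFP minus that in tdTomato is the same number. The corresponding difference was 1.36 for Postn, whose GFP library was higher in the male pair and lower in the female pair. For the male over female contrast, GFP minus tdTomato, it was -0.96 for Sparc and 1.68 for Sparcl1. Opposite directions of at least 2-fold were found in 19.2% of all tested genes for GFP over tdTomato between the pairs. For male over female between the colours the share was 13.7%. Tnxb was the 1 member that met this measure, in both contrasts. The share of all tested genes that meet the rule without a 2-fold limit is not given here, so the 4 genes are a description only.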

How the results depend on the processing

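Between the colours, edgeR called 0 genes under every scaling and filter, without the replicate block and without each library (0 to 0), limma-voom called 0, and DESeq2 called 1157. Between the sexes, DESeq2 called 140 and edgeR without a low-count filter 2, and the other settings 0. For GFP over tdTomato, DESeq2 moved Tnc (log2 -9.98) and Tgfbi (-6.78) past the threshold. Fn1 turned to -0.12 with library totals and to -0.19 among genes of at least 50 CPM, and Postn to 0.040 with DESeq2 size factors and 0.040 in the DESeq2 test. With library totals the ratio within a pair turned to -0.093 for Fn1 in the male pair, and to -0.15 for Fn1 and -0.12 for Sparc in the female pair. This scaling shifts the median gene by -0.20 in the male and -0.21 in the female pair, and DESeq2 size factors by 0.22 and 0.12. The prior count moved ratios in which a library had 0 counts. From a prior count of 0.5 to one of 5, the ratio in the female pair went from -10.44 to -7.12 for Tnc. It went from -11.27 to -7.95 for Tgfbi and from 7.76 to 4.50 for Tnxb. For male over female, Fn1 turned to -0.0089 without the filter, and Tnc to -0.44 and Tnxb to -0.71 without the replicate block. Leaving out each library, with no block, gave for GFP over tdTomato -4.38 to 8.73 for Tnxb (reversed at -4.38 and -0.23) and -0.63 to 0.38 for Postn (reversed at 0.14 and 0.38). For male over female it gave -7.87 to 10.91 for Tnc (reversed at -7.87 and -1.42), -5.19 to 8.04 for Tnxb (reversed at -5.19 and -1.71), -0.078 to 0.69 for Postn (reversed at -0.078 and -0.058), and for the others -0.29 to 13.38 (Tgfbi), -0.66 to 0.22 (Sparc) and -0.94 to 1.18 (Sparcl1). When a library is left out without the block, a sex keeps a single colour. The male over female value then cannot be told apart from a difference between colours. In the same way the GFP over tdTomato value then cannot be told apart from a difference between suspensions. The part of this in each reversal was not tested. Without the block or a library, Tnc stayed between -12.35 and -8.60, Tgfbi between -13.92 and -1.74 and Sparcl1 between 0.77 and 1.82 for GFP over tdTomato, with none past the threshold. No fit that keeps the block can leave out a library, since no residual degree of freedom is left.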
